A study of Mus musculus with 24 samples.

Results

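Transcripts of 9 complement components and regulators were followed in mouse organ of Corti (OC) explants. The genes were C1qa, C1qb, C1qc, C1ra, C1s1, C4b, C3, Cfb and Serping1, found as the rows of the count table whose Entrez identifiers match these symbols, 9 of 24454 rows in all. They were selected with earlier results of these data known, among them lower counts of Serping1, C1ra and C1s1 with pioglitazone at 24 h. The values with and without pioglitazone at 24 h are therefore given as a description. Where a count of members past the threshold of the fit is printed for them, it describes these libraries and is not read as a test. The libraries of 6 h had no part in that choice, whereas every other comparison with 24 h libraries shares libraries with it.

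OCs were taken from C57BL/6N pups of both sexes at 5 days of age and kept in medium for 24 h before treatment. Explants were then held in medium alone (CTRL), with 50 µM gentamicin (GM), with 10 µM pioglitazone (PIO) or with both drugs (PIO + GM), and RNA was taken after 6 h or 24 h. Gentamicin is an aminoglycoside antibiotic that is toxic to hair cells, and pioglitazone is a thiazolidinedione that activates the nuclear receptor PPAR-γ. Each of the 8 groups had 3 libraries of 6 pooled explants, and since nothing says that replicates came from separate litters or days, p-values measure the spread between these libraries. Between 7211357 and 15548856 reads were counted on genes per library, so that 3 counts correspond to 0.193 to 0.416 CPM (counts scaled to the same library size), a limit of counting error only. Transcripts that define hair cells and supporting cells were present in every library, with Myo7a at 30.9 to 96.0 CPM and Sox2 at 29.8 to 90.1 CPM. An explant holds several cell types, and in such bulk samples fewer cells of a type and less RNA per cell cannot be told apart.

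Complement is a cascade of serum and tissue proteins that tags surfaces for removal. In the classical pathway the recognition molecule C1q, built of the chains C1qa, C1qb and C1qc, carries the proteases C1r and C1s, which cleave C4 and C2. C3 is the central protein on which the pathways meet, factor B (Cfb) amplifies C3 cleavage in the alternative pathway, and Serping1 encodes C1 inhibitor, which blocks C1r and C1s. C1q is known mainly as a product of macrophages and microglia, whereas C1r, C1s, C3, factor B and C1 inhibitor are made by many cell types, including fibroblasts and epithelia, and respond to cytokines.

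The C1q genes lie side by side on the minus strand of chromosome 4 (GRCm38), C1qa at chr4:136895917-136898803, C1qc at chr4:136889804-136893065 and C1qb at chr4:136880129-136886187. The protease genes C1ra (chr6:124512405-124523443, plus strand) and C1s1 (chr6:124530345-124542359, minus strand) are neighbours on chromosome 6. C4b (chr17:34728380-34743882) and Cfb (chr17:34856374-34862518) lie close together on chromosome 17, with C3 further along at chr17:57203970-57228136, and Serping1 is at chr2:84765387-84775444, all on the minus strand. Promoter windows of RefSeq (GRCm38.p6, 250 bases before to 50 bases after the start) matched 5 of the 9 genes. They are shown for a pair of neighbours from each of the chromosome 4 and 6 loci, since the C1q genes moved together and C1ra and C1s1 moved together in the values that follow. Capitals mark matches to the letters searched on both strands, which were TTCNNNGAA for STAT, GAAANNGAAA for IRF, GAGGAA for PU.1, AGGTCANAGGTCA for PPAR-RXR and CCAAT. No match overlapped another.
C1qb, chr4:136886151-136886450, minus strand: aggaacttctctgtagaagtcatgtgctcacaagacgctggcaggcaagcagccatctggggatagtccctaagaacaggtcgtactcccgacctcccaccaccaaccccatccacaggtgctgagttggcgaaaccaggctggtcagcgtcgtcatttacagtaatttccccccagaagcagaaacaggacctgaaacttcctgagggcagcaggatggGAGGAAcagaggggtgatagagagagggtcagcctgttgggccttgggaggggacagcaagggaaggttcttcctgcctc
C1qc, chr4:136892865-136893164, minus strand: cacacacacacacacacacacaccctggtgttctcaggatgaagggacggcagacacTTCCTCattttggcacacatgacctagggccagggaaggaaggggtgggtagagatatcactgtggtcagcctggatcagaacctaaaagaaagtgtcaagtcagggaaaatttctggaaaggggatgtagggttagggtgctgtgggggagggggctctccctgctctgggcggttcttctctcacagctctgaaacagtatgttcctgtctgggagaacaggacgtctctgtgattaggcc
C1ra, chr6:124512371-124512670, plus strand: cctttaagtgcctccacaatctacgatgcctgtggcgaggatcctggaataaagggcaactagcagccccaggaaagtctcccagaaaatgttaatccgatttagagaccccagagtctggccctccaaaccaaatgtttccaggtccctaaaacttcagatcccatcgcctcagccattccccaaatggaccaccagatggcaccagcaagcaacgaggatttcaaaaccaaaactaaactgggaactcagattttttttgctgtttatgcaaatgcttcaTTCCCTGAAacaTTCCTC
C1s1, chr6:124542310-124542609, minus strand: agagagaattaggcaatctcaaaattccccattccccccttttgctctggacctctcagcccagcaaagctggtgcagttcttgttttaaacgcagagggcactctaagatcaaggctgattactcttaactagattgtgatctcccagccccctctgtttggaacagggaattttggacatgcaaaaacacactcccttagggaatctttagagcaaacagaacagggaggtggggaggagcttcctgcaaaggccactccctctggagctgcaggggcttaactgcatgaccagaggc

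The PU.1 letters were matched in C1qb at position -30 from the start, on the strand shown, and in C1qc at position -193, on the opposite strand. PU.1 is a transcription factor of macrophages and other blood cells. These letters were also matched in C1ra, on the opposite strand at position 45 downstream of the start, and they stand in 28.3% of all 32851 promoter windows. The STAT letters were matched in C1ra at position 33, and stand in 8.3% of all windows. The C1s1 window shown held none of the letters searched. The IRF letters stand in 3.44% of all windows, the PPAR-RXR letters in 0.0396% and CCAAT in 37.4%, and none was matched in the windows shown. A match is only a description of the letters in the window.

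All 9 genes had enough counts to be tested. Per length, the C1q chains stood highest, with mean levels over the 24 libraries of 11.4 RPKM for C1qa, 10.9 RPKM for C1qc and 10.4 RPKM for C1qb. C4b followed with 9.10 RPKM and Serping1 with 7.66 RPKM, whereas C1s1 reached 4.72 RPKM. The levels of Cfb, C1ra and C3 were lowest, at 1.37, 1.35 and 0.733 RPKM. The ranges of every pair of neighbours in this order overlapped. The highest of the order, C1qa, ranged from 2.92 to 27.1 RPKM, and the lowest, C3, from 0.112 to 7.20 RPKM. Counts of C3 went down to 9 in a library, and those of C1ra and Cfb to 20.

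Some of these levels rest on reads that also match another gene. Of all windows of the read length of 76 bases in the C1ra transcript, 42.1% also occur in another gene, mostly the copy C1rb. The share was 14.4% for C1s1, with its copy C1s2, and 23.2% for C4b, with its copy C4a. Of the C1s1 windows, 13.3% also occur on the opposite strand in Gm16567. In Cfb, 81.2% of windows are also part of the overlapping gene model Gm20547, which has no row of that name in the count table. No window was shared for C1qa, C1qb, C1qc, C3 and Serping1. The counts of C1ra, C1s1, C4b and Cfb are therefore uncertain as levels of those genes alone, since the treatment of such reads is not given in the sources used here.

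**Figure D1:**
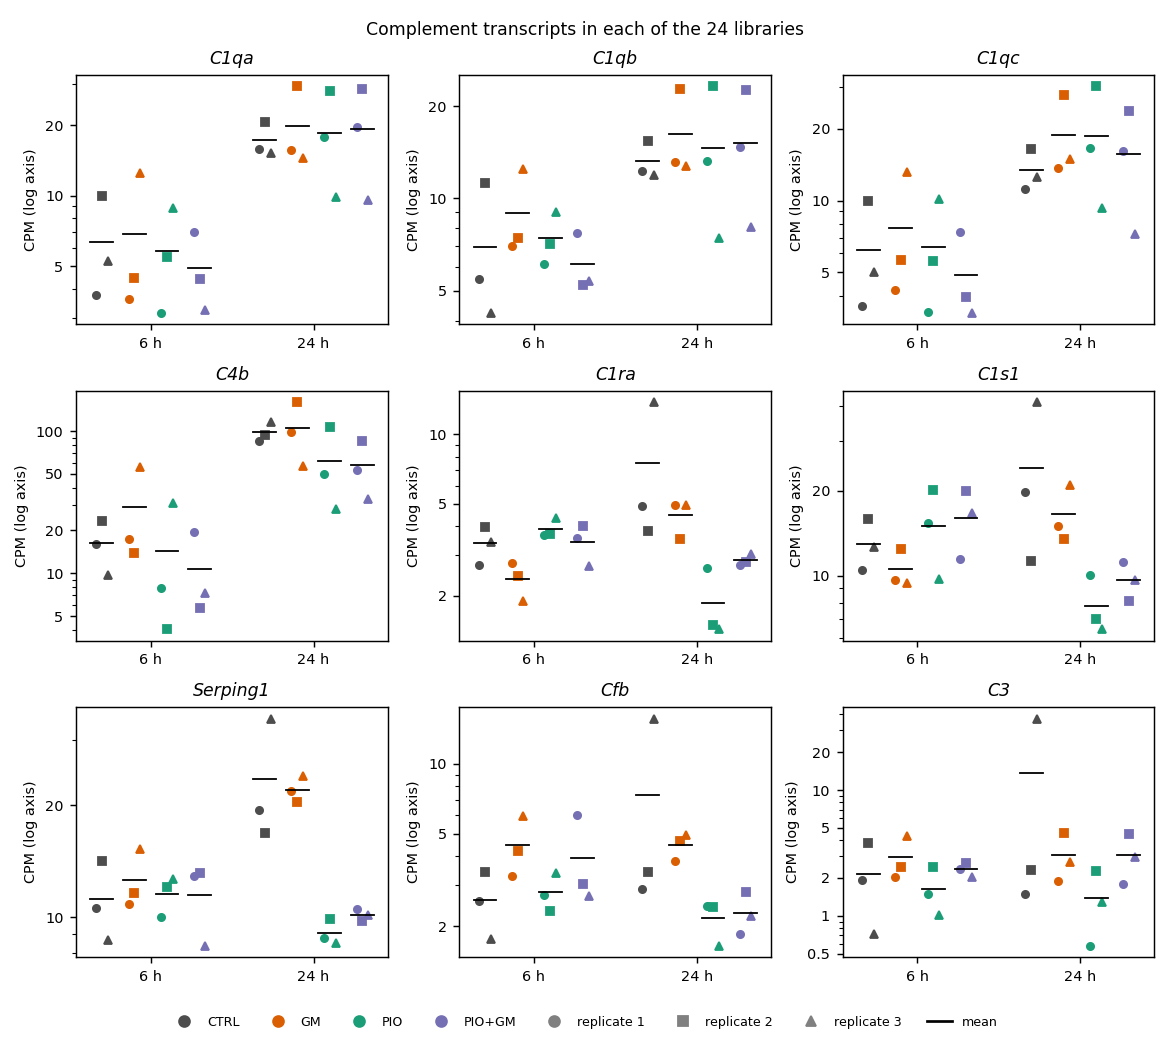
Normalised level of each transcript in each of the 24 libraries, in CPM on a log axis, grouped by time and treatment. Points are libraries with a shape for each replicate number, and bars are group means of 3 libraries. C1qa, C1qb, C1qc and C4b are higher at 24 h in most libraries, and Serping1 at 24 h is at or below 10.5 CPM in all PIO and PIO + GM libraries and at or above 16.8 CPM in all CTRL and GM libraries.

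Across the 24 libraries the 9 transcripts followed partly separate patterns. C1qa, C1qb, C1qc and C4b varied together, with Pearson's r of log2 CPM between 0.88 and 0.98. C1ra and C1s1 formed another pair, with r = 0.85, as did Serping1 and Cfb, with r = 0.79, and Cfb and C3, with r = 0.78. Across the patterns r was between -0.20 and 0.53. These correlations describe 24 libraries that share treatment, time and replicate groups. After group means were removed, r was 0.99 for C1qa and C1qc, 0.78 for C1qa and C4b, 0.71 for C1ra and C1s1 and 0.81 for Serping1 and Cfb. The division was then less clear, with r = 0.51 for C4b and Cfb across them and r = 0.36 for C1s1 and Cfb and 0.46 for C1ra and C3 within the second. CTRL 24 h replicate 3 held the highest level of all 24 libraries for each of C1ra, C1s1, Serping1, Cfb and C3. It can raise r among these genes, also after group means are removed, and r without it was not computed.

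**Figure D2:**
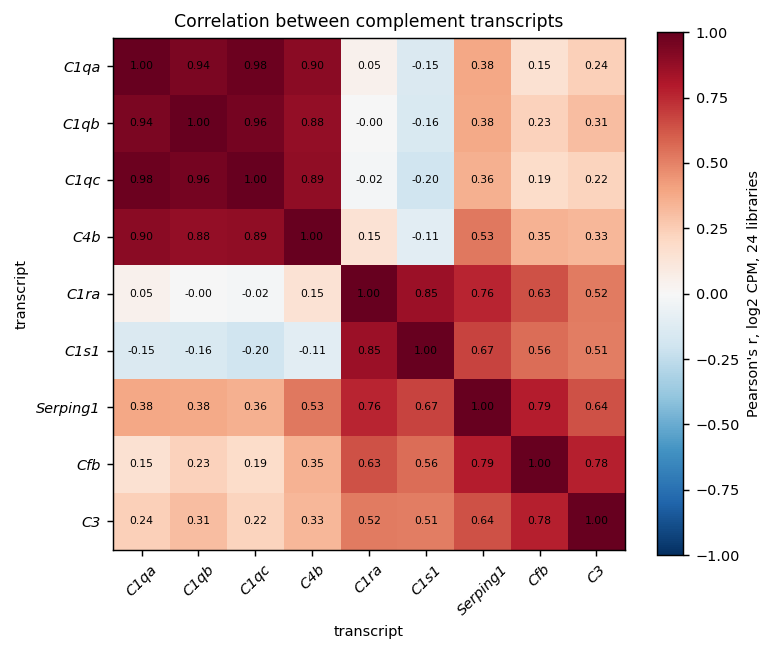
Pearson's r of log2 CPM between the complement transcripts over the 24 libraries, with each value printed in its cell and coloured from blue (-1) to red (1). C1qa, C1qb, C1qc and C4b form a block between 0.88 and 0.98, and C1ra, C1s1, Serping1, Cfb and C3 form another with r from 0.51 to 0.85. Each gene of the latter block is highest in CTRL 24 h replicate 3.

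Of all tested genes, those most like C1qa over the 24 libraries were Adamts12 (r = 0.95), Lacc1 (r = 0.948) and Lyz2 (r = 0.947). Lyz2 encodes a lysozyme of myeloid cells and Lacc1 an enzyme of macrophages, and Adamts12 encodes an extracellular protease. The genes most like Serping1 were Ly6a (r = 0.873), Chil1 (r = 0.868) and Emp2 (r = 0.854). For C1ra they were its copy C1rb (r = 0.80), with which it shares sequence, Chil1 (r = 0.792) and Gucy2f (r = 0.758). For C3 they were Cd74 (r = 0.723), Chil1 (r = 0.707) and Clec4a2 (r = 0.682). Chil1, a secreted protein of the chitinase family, stood on the lists of Serping1, C1ra and C3. These members were each highest in CTRL 24 h replicate 3, and the lists were not computed without it. After group means were removed, r was 0.513 to 0.867 for the genes listed for them and 0.822 to 0.91 for those of C1qa. Clec4a2 was low, at a mean log2 CPM of -0.20.

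C1qa rose from 6 h to 24 h in all 4 treatments. At 6 h it was at 3.78, 9.96 and 5.27 CPM in CTRL, 3.61, 4.46 and 12.4 CPM in GM, 3.16, 5.50 and 8.82 CPM in PIO and 7.03, 4.41 and 3.24 CPM in PIO + GM. At 24 h it was at 15.8, 20.7 and 15.2 CPM in CTRL, 15.6, 29.4 and 14.5 CPM in GM, 17.8, 28.0 and 9.86 CPM in PIO and 19.7, 28.4 and 9.56 CPM in PIO + GM. The libraries of the time points did not overlap in any treatment. Log2 fold changes were 1.45 (SE 0.52, adjusted p = 0.0439) in CTRL, 1.52 (SE 0.52, 0.0375) in GM, 1.66 (SE 0.52, 0.0234) in PIO and 1.95 (SE 0.53, 0.00856) in PIO + GM, by edgeR's quasi-likelihood test over all genes. With each of the 6 libraries left out in turn, the call held in 1 of 6 fits in CTRL (adjusted p up to 0.155), 2 of 6 in GM (up to 0.168), 3 of 6 in PIO (up to 0.12) and 6 of 6 in PIO + GM, with a positive change in all.

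C1qb and C1qc had positive changes in each treatment and passed the threshold in fewer treatments. C1qb rose in PIO + GM, by a log2 fold change of 1.30 (SE 0.43, adjusted p = 0.0237), and stood at 0.93 in CTRL, 0.85 in GM and 0.98 in PIO, where it did not pass. C1qc rose in PIO (1.54, SE 0.54, adjusted p = 0.0382) and PIO + GM (1.66, SE 0.55, adjusted p = 0.0253), with 1.12 in CTRL and 1.28 in GM, which did not pass.

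C4b, the substrate of the C1s protease, had the steepest rise of the C1q pattern. In CTRL it went from 16.1, 23.4 and 9.73 CPM at 6 h to 85.4, 93.3 and 115 CPM at 24 h, and in PIO + GM from 19.4, 5.69 and 7.29 CPM to 53.4, 85.2 and 33.5 CPM. The libraries of the time points did not overlap in these treatments. The log2 fold changes were 2.58 (SE 0.70, adjusted p = 0.00969) in CTRL, 2.08 (SE 0.69, adjusted p = 0.0296) in PIO and 2.40 (SE 0.71, adjusted p = 0.0133) in PIO + GM. In GM the change was 1.85 (SE 0.67) and did not pass, at an adjusted p of 0.0508. The spread at 6 h was wide, with replicate 3 at 56.0 CPM in GM beside 17.4 and 13.9 CPM, and at 31.0 CPM in PIO beside 7.89 and 4.02 CPM.

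Of the other members, 4 were past the threshold with time in at least 1 treatment. Serping1, C1ra and C1s1 were chosen with their lower 24 h values under pioglitazone known. Their time changes use those libraries, so they are given as a description and not read as a test. Serping1 rose in CTRL from 10.6, 14.2 and 8.70 CPM to 19.5, 16.8 and 34.3 CPM, a log2 fold change of 1.07 (SE 0.24, adjusted p = 0.00232). In GM it rose from 10.8, 11.6 and 15.2 CPM to 21.8, 20.5 and 23.9 CPM, a log2 fold change of 0.81 (SE 0.23, adjusted p = 0.016). Neither set of libraries overlapped between the time points. In PIO and PIO + GM the changes of Serping1 were -0.35 and -0.19 and did not pass. C1ra rose in CTRL (1.15, SE 0.36, adjusted p = 0.0222) and fell in PIO (-1.07, SE 0.37, adjusted p = 0.0376), from 3.68, 3.70 and 4.34 CPM to 2.63, 1.50 and 1.43 CPM. The fall in PIO held in 1 of 6 fits with a library left out, with adjusted p up to 0.131 and changes from -1.41 to -0.92. C3 and Cfb passed in CTRL alone of the treatments, at 2.66 (SE 0.86, adjusted p = 0.0266) and 1.50 (SE 0.49, adjusted p = 0.027). Without CTRL 24 h replicate 3 the changes of C3, Cfb and C1ra in CTRL were -0.15, 0.30 and 0.37 and did not pass. C1s1 passed in none of the treatments, with changes from -0.94 to 0.89.

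In counts, 6 of the 9 members rose and 0 fell in CTRL, beside 14.8% higher and 13.2% lower of all 16317 tested genes. In GM 2 rose and 0 fell, beside 12.5% and 11.7% of all genes. In PIO 3 rose and 1 fell, beside 13.2% and 15.8%, and in PIO + GM 4 rose and 0 fell, beside 17.6% and 17.0%. The median log2 fold change of the members was 1.15, 0.85, -0.22 and 0.37 in CTRL, GM, PIO and PIO + GM, and that of all genes was at most 0.033. Serping1 or C1ra is among those counted in CTRL, GM and PIO, so these counts describe the libraries and are not read as a test.

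**Figure D3:**
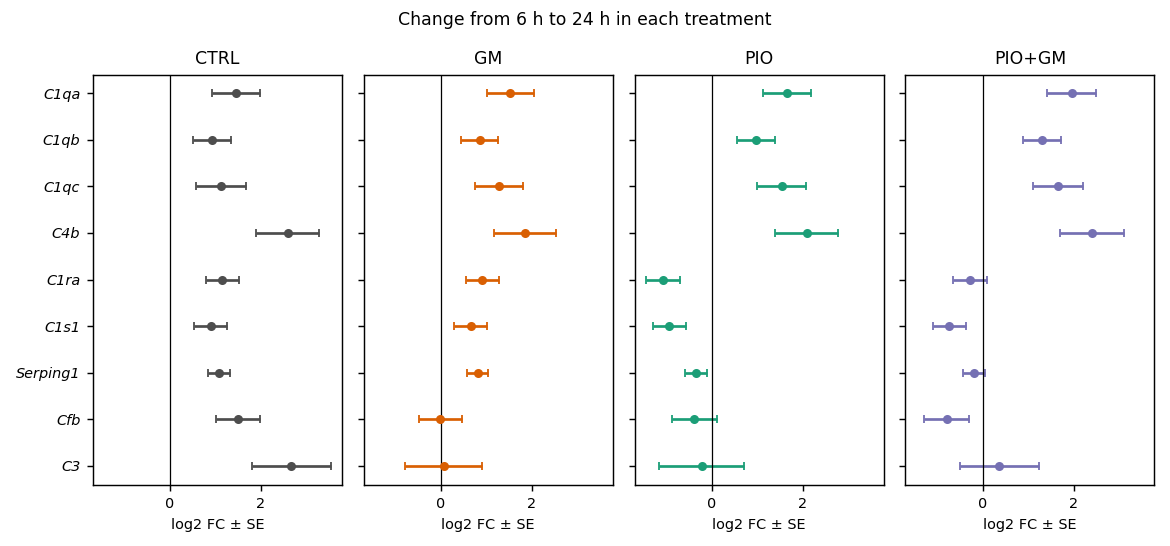
Log2 fold change from 6 h to 24 h with its standard error for each transcript, in a panel for each treatment. C1qa, C1qb, C1qc and C4b lie to the right of 0 in all 4 panels, whereas C1ra, C1s1 and Serping1 lie to the right of 0 in CTRL and GM and to the left in PIO and PIO + GM.

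Many of the time calls rest on single libraries. With a library left out, C1qb in PIO + GM kept its call in 3 of 6 fits, C1qc in 2 of 6 in PIO and in PIO + GM, C4b in 6, 3 and 4 of 6 in CTRL, PIO and PIO + GM, and Serping1 in 6 and 3 of 6 in CTRL and GM. CTRL 24 h replicate 3 stood apart, with 37.0 CPM of C3 beside 1.49 and 2.31 CPM, 15.7 CPM of Cfb beside 2.90 and 3.43 CPM and 13.8 CPM of C1ra beside 4.92 and 3.83 CPM. Without it the changes in CTRL were -0.15 for C3, 0.30 for Cfb and 0.37 for C1ra, none past the threshold, and 0.70 for Serping1 (adjusted p = 0.0253), and 2 members were called. The count in CTRL was also 2 without CTRL 6 h replicate 1 or 3. In GM it was 0 without GM 6 h replicate 1 or 2, 1 without GM 24 h replicate 1 or 2, and 4 without GM 6 h replicate 3, where C1qa changed by 2.30. In PIO it was 0 without PIO 6 h replicate 1 or 2 or PIO 24 h replicate 2, which brought C1qc to 1.02, and C4b changed by 3.37 without PIO 6 h replicate 3. In PIO + GM it was 1 without PIO + GM 6 h replicate 2 or PIO + GM 24 h replicate 2, and 2 without PIO + GM 6 h replicate 3.

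Summed macrophage transcripts were higher at 24 h as well, with overlapping ranges. The summed level of 15 macrophage markers was 88.5 to 210 CPM in the 12 libraries of 6 h and 155 to 385 CPM in those of 24 h. Replicate 2 had the highest sum of each treatment at 24 h, as it had for C1qa, C1qb and C1qc. Of the 15 markers, 2 rose in CTRL, 3 in GM, 4 in PIO and 4 in PIO + GM, and 0 fell in any. Of all genes, 14.8%, 12.5%, 13.2% and 17.6% rose in these treatments, so that the 2 in CTRL were no larger a share than among all genes. In each treatment 14 of the 15 had positive changes, with medians of 0.56, 0.84, 0.59 and 0.76 in CTRL, GM, PIO and PIO + GM. Lyz2 rose in all 4, and Trem2, a receptor of microglia and macrophages, in GM, PIO and PIO + GM. The defining markers Csf1r and Adgre1 were present in all libraries, at 9.58 to 55.6 CPM and 6.29 to 31.5 CPM, and neither passed the test with time. Markers of other cells moved with time as well. Of the 12 markers of fibroblasts and mesenchyme, 5 rose and 0 fell in CTRL, 4 rose and 1 fell in GM, 3 rose and 1 fell in PIO and 4 rose and 3 fell in PIO + GM. The 3 tested blood markers all fell in CTRL and GM and 2 of them in PIO and PIO + GM, with medians from -2.04 to -1.18. Of 8 Schwann cell markers 2, 4, 2 and 2 fell in CTRL, GM, PIO and PIO + GM, beside 13.2%, 11.7%, 15.8% and 17.0% of all genes, and 1 (Sox10, at 0.53) rose in PIO + GM. Their medians were from -1.57 to -0.79, and the medians of 6 neuron markers were from -1.67 to -0.64, with 1 called lower in CTRL, GM and PIO + GM and 1 called higher in each treatment. The part of any of these in the time changes of the members was not tested.

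Gentamicin alone gave no call among the members. In GM against CTRL, 0 of the 9 were called at 6 h and 0 at 24 h by edgeR's quasi-likelihood test, its likelihood ratio test or DESeq2's Wald test, beside 0% and 0.0123% of all genes by the first. At an unadjusted p under 0.05 there were 0 members at 6 h and 2 at 24 h, beside 1.49% and 1.67% of all genes. The log2 fold changes at 6 h ran from -0.51 (SE 0.37) for C1ra to 0.84 (SE 0.67) for C4b. At 24 h those 2 members were C1ra, at -0.74 (SE 0.35), and C3, at -2.14 (SE 0.83). Both rest on CTRL 24 h replicate 3, since without it C1ra was at 0.03 (SE 0.27) and C3 at 0.67 (SE 0.60), with the opposite sign. Serping1 differed by 0.17 (SE 0.24) at 6 h and -0.09 (SE 0.23) at 24 h. The standard errors ran from 0.23 for Serping1 to 0.87 for C3, so a p that misses the threshold does not show equal levels.

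Pioglitazone for 6 h likewise gave no call among the members. The 6 h libraries of PIO and CTRL overlapped for all 9, with log2 fold changes from -0.40 (SE 0.92) for C3 to 0.21 (SE 0.36) for C1ra, and 0 members passed, beside 0.337% of all genes. In PIO + GM against GM at 6 h, 0 passed, beside 1.32% of all genes. At an unadjusted p under 0.05 there were 0 members in either comparison, beside 15.2% and 25.0% of all genes, and the likelihood ratio test and DESeq2 called 0. The lowest value was -1.42 (SE 0.69) for C4b, at 19.4, 5.69 and 7.29 CPM in PIO + GM and 17.4, 13.9 and 56.0 CPM in GM. It was -0.53 without GM 6 h replicate 3 and -2.17 without PIO + GM 6 h replicate 1. C1ra and C1s1 stood at 0.54 (SE 0.38) and 0.61 (SE 0.36).

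At 24 h, Serping1, the gene of C1 inhibitor, was lower in every library with pioglitazone than in any without. It was at 8.80, 9.88 and 8.50 CPM in PIO and 10.5, 9.76 and 10.1 CPM in PIO + GM, against 19.5, 16.8 and 34.3 CPM in CTRL and 21.8, 20.5 and 23.9 CPM in GM. The log2 fold change was -1.37 (SE 0.24) in PIO against CTRL and -1.12 (SE 0.24) in PIO + GM against GM. At 6 h the same contrasts gave 0.05 (SE 0.24) and -0.13 (SE 0.24).

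The C1r and C1s protease genes had lower values too. C1ra was at 2.63, 1.50 and 1.43 CPM in PIO against 4.92, 3.83 and 13.8 CPM in CTRL, a log2 fold change of -2.0 (SE 0.37). In PIO + GM it was at 2.71, 2.80 and 3.02 CPM against 4.96, 3.51 and 4.93 CPM in GM, a change of -0.65 (SE 0.36). C1s1 was at 10.0, 7.02 and 6.43 CPM in PIO against 19.8, 11.3 and 41.3 CPM in CTRL, and at 11.2, 8.10 and 9.64 CPM in PIO + GM against 15.0, 13.5 and 21.1 CPM in GM, with changes of -1.62 (SE 0.36) and -0.78 (SE 0.36). The libraries with and without pioglitazone overlapped for neither gene within a contrast.

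Of the alternative pathway, Cfb was at 2.44, 2.41 and 1.64 CPM in PIO against 2.90, 3.43 and 15.7 CPM in CTRL. It was at 1.85, 2.80 and 2.21 CPM in PIO + GM against 3.80, 4.66 and 4.93 CPM in GM, so that the libraries did not overlap in either contrast. The changes were -1.75 (SE 0.49) and -0.97 (SE 0.49). C3 had the lowest value in PIO against CTRL, -3.29 (SE 0.89), but its libraries overlapped, at 0.578, 2.28 and 1.29 CPM against 1.49, 2.31 and 37.0 CPM. In PIO + GM against GM the change of C3 was -0.01 (SE 0.84).

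C1qa, C1qb and C1qc did not share this pattern, with changes of 0.11, 0.15 and 0.48 in PIO against CTRL and -0.04, -0.10 and -0.26 in PIO + GM against GM, each with overlapping libraries. C4b stood at -0.67 (SE 0.65) and -0.88 (SE 0.65). In PIO against CTRL at 24 h, 4 of the 9 members (C1ra, C1s1, Cfb and Serping1) had all PIO libraries below all CTRL libraries, beside 10.6% of all genes, and 2 (C1ra and Serping1) were past the threshold, beside 0.153% of all genes. In PIO + GM against GM the same 4 had no overlap, beside 8.57% of all genes, and 0 were past the threshold, beside 0.110%. With the replicate number as a block, Serping1 was past the threshold in PIO + GM against GM (-1.11, edgeR adjusted p = 0.0367) and C1s1 in PIO against CTRL (-1.49, adjusted p = 0.0238). These contrasts had a part in choosing the members, so nothing is read from the counts.

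**Figure D4:**
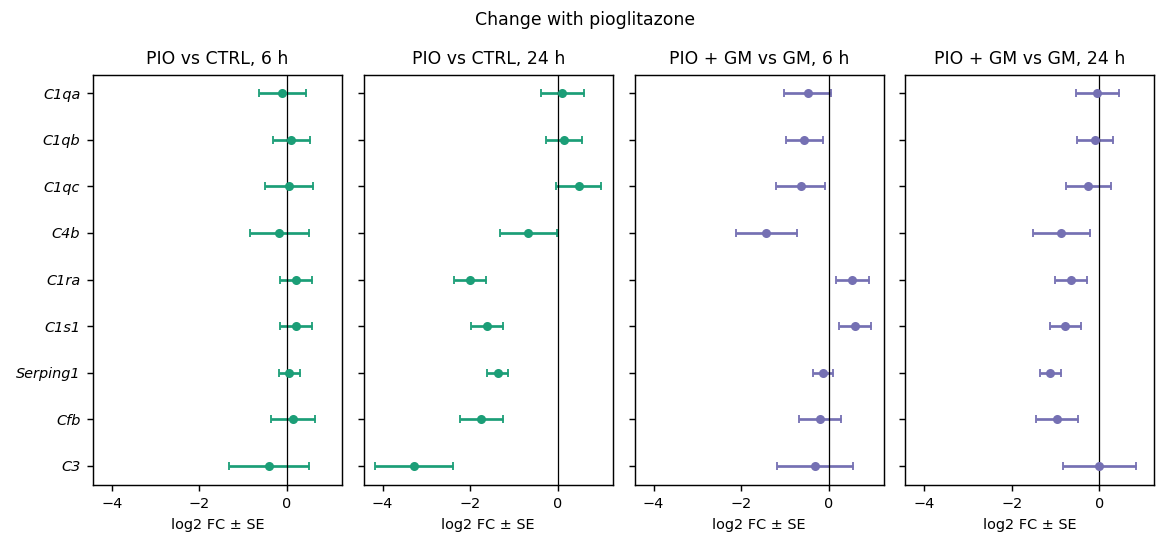
Log2 fold change with pioglitazone and its standard error for each transcript, for PIO against CTRL and PIO + GM against GM at 6 h and 24 h. At 24 h C1ra, C1s1, Serping1 and Cfb lie to the left of 0 in both contrasts, while at 6 h their values lie between -0.19 and 0.61.

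CTRL 24 h replicate 3 set much of the size of these differences. Without it the changes in PIO against CTRL at 24 h were -1.0 (SE 0.21) for Serping1, -1.23 (SE 0.28) for C1ra, -0.99 (SE 0.32) for C1s1, -0.55 (SE 0.36) for Cfb and -0.47 (SE 0.61) for C3, and 0 members were past the threshold. The count was also 0 without PIO 24 h replicate 2 or 3, and 1 without PIO 24 h replicate 1. PIO + GM against GM does not use that library, but the fit shares its spread, and without it 1 member was past the threshold.

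Marker lists of other cells differed in how they stood with pioglitazone at 24 h, and summed markers of fibroblasts and mesenchyme were lower. The summed level of 12 such markers at 24 h was 3819 to 4863 CPM in PIO and 3738 to 4446 CPM in PIO + GM, against 5653 to 6457 CPM in CTRL and 5415 to 7772 CPM in GM. At 6 h the sums overlapped, with 3133 to 4594 CPM in PIO, 3363 to 4557 CPM in PIO + GM, 4101 to 5808 CPM in CTRL and 3808 to 5676 CPM in GM. Of the 12 markers, 1 fell in each 24 h contrast, Postn, which encodes a matrix protein, with log2 fold changes of -1.81 and -1.69, beside 0.116% and 0.0858% of all genes lower. In the 6 h contrasts 1 also fell, Pdgfra, a receptor of mesenchymal cells, at -0.80 and -0.82, beside 0.190% and 0.723% of all genes. The median over the 12 was -0.43 and -0.31 at 6 h and -0.52 and -0.65 at 24 h. Of the defining markers, Col1a1 overlapped between PIO and CTRL, at 15.9 to 212 CPM and 28.4 to 77.8 CPM, and Pdgfra was at 344 to 440 CPM in PIO and 450 to 530 CPM in CTRL. The change of Col1a1 was 0.64 (SE 0.91) there and -2.94 (SE 0.98) in PIO + GM against GM, the lowest of the 12, at 15.9 to 32.7 CPM against 58.5 to 369.6 CPM, and did not pass in either. In PIO against CTRL 9 of the 12 had negative changes and 4 had an unadjusted p under 0.05, beside 9.93% of all genes, and in PIO + GM against GM 10 and 6, beside 7.47%. Endothelial markers had negative changes in 6 of 7 in PIO against CTRL (median -0.25) and 7 of 7 in PIO + GM against GM (median -0.45), and hair cell markers in 9 of 11 (median -0.31) and 7 of 11 (median -0.33), with 0 called. The summed macrophage markers at 24 h overlapped between PIO, at 155 to 370.5 CPM, and CTRL, at 206 to 277 CPM. Of the 15, 7 had negative changes in PIO against CTRL (median 0.0017) and 12 in PIO + GM against GM (median -0.27), with 0 called. Neuron markers had negative changes in 5 of 6 in both contrasts (medians -0.17 and -0.34), with 0 called. The 3 tested blood markers had positive changes in both (medians 0.63 and 0.39), and in PIO + GM against GM 5 of 10 supporting cell markers and 4 of 8 Schwann cell markers had negative changes, against 9 of 10 and 6 of 8 in PIO against CTRL. The part of these markers in the lower values was not tested.

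**Figure D5:**
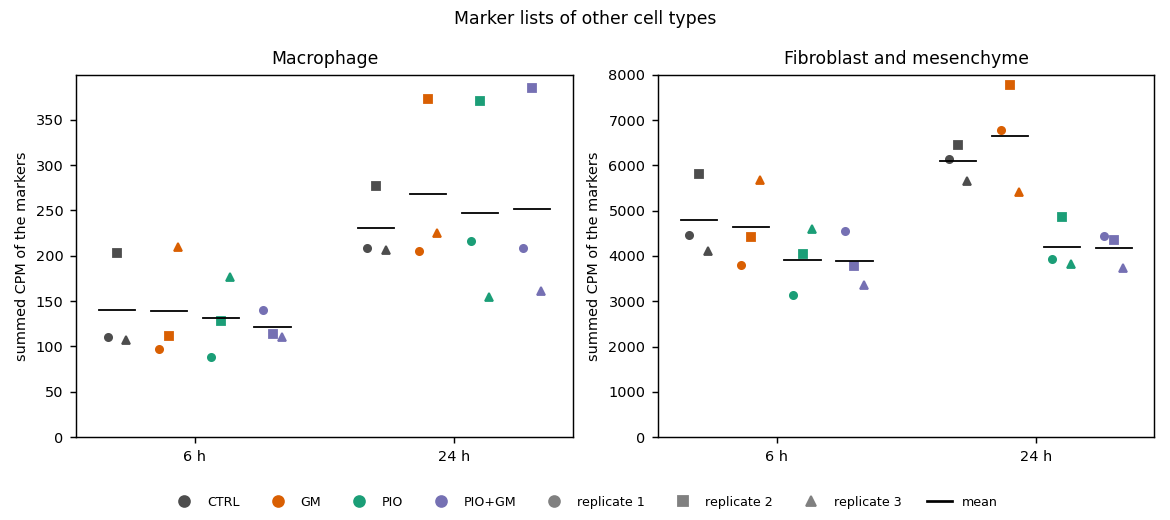
Summed CPM of 15 macrophage markers (left) and 12 markers of fibroblasts and mesenchyme (right) in each library, with bars at group means of 3 libraries. The macrophage sum is 88.5 to 210 CPM at 6 h and 155 to 385 CPM at 24 h, and the fibroblast sum at 24 h is at most 4863 CPM in all PIO and PIO + GM libraries and at least 5415 CPM in all CTRL and GM libraries.

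The difference between the pioglitazone effects at 24 h and 6 h contains the same contrasts and is also given as a description. It was -1.43 (SE 0.33) for Serping1, -2.22 (SE 0.52) for C1ra, -1.83 (SE 0.51) for C1s1 and -1.88 (SE 0.70) for Cfb without gentamicin. Leaving out CTRL 24 h replicate 3 brought these to -1.05, -1.44, -1.19 and -0.68. With gentamicin it was -1.0 (SE 0.33), -1.19 (SE 0.52), -1.38 (SE 0.51) and -0.78 (SE 0.68) for the same genes. That of Cfb with gentamicin ran from -1.04 to -0.34 with single libraries left out. For C1qa, C1qb and C1qc the difference was 0.05 to 0.45. None was past the threshold, beside 0% of all genes in both.

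The effect of GM against CTRL did not differ past the threshold between the times for any member by edgeR's test or DESeq2, also beside 0% of all genes. At an unadjusted p under 0.05 there were 2 members, beside 0.766% of all genes, C3 at -2.60 and Cfb at -1.51. Both rest on CTRL 24 h replicate 3, without which C3 was at 0.21 and Cfb at -0.31.

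Whether gentamicin alters the effect of pioglitazone was asked at each time. The effect with GM minus that without ran from -1.25 (SE 0.97) for C4b to 0.40 (SE 0.51) for C1s1 at 6 h, and 0 members passed edgeR's test, beside 0% of all genes, with 0 at an unadjusted p under 0.05. At 24 h, given as a description, it was 1.36 (SE 0.51) for C1ra, 3.28 (SE 1.21) for C3 and 0.25 (SE 0.33) for Serping1, and again 0% of all genes passed. Without CTRL 24 h replicate 3 these were 0.58 for C1ra, 0.47 for C3 and -0.12 for Serping1. In PIO + GM against PIO 0 members passed at 6 h or 24 h, beside 0% and 0.0735% of all genes, with 0 at an unadjusted p under 0.05 (3.06% and 2.59% of all genes) and 0 by the likelihood ratio test or DESeq2. C1ra was higher in all PIO + GM than in all PIO libraries at 24 h, with a log2 fold change of 0.61 (SE 0.38), and the range over the members was -0.26 to 1.14.

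Beyond the 9 members, 50 further complement genes and receptors were examined, of which 39 had enough counts to be tested. In the 8 comparisons between treatments 0 of the 39 were called by edgeR's test, and 1 to 10 of them had an unadjusted p under 0.05. The 10 were in PIO + GM against GM at 6 h, where 25.0% of all genes had such a p, so that they are near the share among all genes. At 24 h the counts of the 39 were 5 in PIO against CTRL, beside 9.93% of all genes, and 3 in PIO + GM against GM, beside 7.47%. The lowest p-values belonged to Cd59b, an inhibitor of the membrane attack complex (-1.05), and C1rb (-0.69) in GM against CTRL at 6 h, and to Sez6l (-1.11) and C1ql1 (0.74) at 24 h. With pioglitazone alone they belonged to Cd93 (-0.90) and C1qbp (-0.34) at 6 h and to C1rb (-1.75) and C2 (-0.87) at 24 h. For PIO + GM against GM they belonged to Itgax, a chain of complement receptor 4 (2.03, adjusted p = 0.064), and C1ql1 (-1.27) at 6 h, and to Csmd1 (-1.03) and C1rb (-1.17) at 24 h. For PIO + GM against PIO they belonged to C8g (-1.27) and C1ql1 (-1.11) at 6 h and to Sez6l (-1.54) and Itgax (2.76, adjusted p = 0.204) at 24 h. Among these, C1rb had low levels at 24 h, at 0.39 to 1.28 CPM in PIO and 1.06 to 5.15 CPM in CTRL, and it shares sequence with C1ra.

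With time, 9 of the 39 rose and 2 fell in CTRL, 10 rose and 2 fell in GM, 4 rose and 4 fell in PIO and 8 rose and 3 fell in PIO + GM. Of all genes 14.8% rose and 13.2% fell in CTRL, 12.5% and 11.7% in GM, 13.2% and 15.8% in PIO and 17.6% and 17.0% in PIO + GM. The counts in PIO were therefore no larger a share than among all genes, and those in PIO + GM were near that share or below it. Those that rose in all 4 treatments were C8g, a chain of the terminal complex, by 1.14 to 2.32, the complement control protein gene Susd4 by 1.18 to 1.71 and the collectin gene Colec12 by 0.85 to 0.97. C1qbp, a mitochondrial protein that binds C1q, fell in all 4, with log2 fold changes of -1.63, -1.49, -1.36 and -1.29 in CTRL, GM, PIO and PIO + GM. C4a, the copy of C4b, rose in CTRL, PIO and PIO + GM by 1.23, 1.10 and 1.19. C1ql1, C1rl and Calr rose in CTRL, GM and PIO + GM, by 0.98 to 2.17, 1.21 to 1.53 and 0.56 to 0.65.

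The regulators of the alternative pathway Cfi, which inactivates C3b, and Cfp, which stabilises the C3 convertase, rose in part of the treatments. Cfi changed by 1.00 in CTRL and 1.18 in GM, and Cfp by 0.78 in CTRL and 0.86 in PIO + GM. In GM alone of the treatments, Cd59b (1.30), Colec11 (1.46) and Vtn (1.36), the gene of vitronectin, rose and Sez6 (-1.96) fell past the threshold. The receptor gene C5ar1 fell in CTRL (-1.28), and C2, the partner of C4 in the classical convertase, fell in PIO (-0.92). Itgax (-3.55, SE 0.66) and Hc, the gene of C5, also fell in PIO, on few reads, with 45, 31 and 14 counts of Itgax at 6 h and 0, 7 and 3 at 24 h, and 11, 4 and 7 counts of Hc at 6 h and 0, 1 and 1 at 24 h. In PIO + GM, Csmd1 (-1.29) and Sez6l (-1.44) fell. Whether these changes differ between treatments was not tested.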

How the data were processed

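RNA was measured in 24 libraries of cultured mouse OCs. The authors mapped reads with STAR to build mm10, per the labels, and counted reads starting in any RefSeq exon of a gene with QuasR; the deposited values are raw counts. The use of the strand is not given in the sources used here. Genes of low counts were removed with filterByExpr, leaving 16317 of 24454, and a model with 8 group means was fitted to all libraries in edgeR 4.0.16 (R 4.3.3) with TMM normalization and the quasi-likelihood F-test, with Benjamini-Hochberg adjustment across the tested genes (threshold 0.05). CPM use TMM-scaled library sizes, log2 CPM a prior count of 2, and SE was derived from the F statistic. The procedure was tested on simulated data. DESeq2 1.42.0, the likelihood ratio test, other scalings and filters, a GC correction, a replicate block and leaving out libraries were alternatives. The members and lists were chosen with earlier results of these data known. Named were all members, the complement genes past the threshold or with the 2 lowest p-values of a treatment comparison, and the 3 genes most like Serping1, C1ra, C1qa and C3. Other named genes belong to the marker lists. Gene locations are from GENCODE (GRCm38). The values of 1 marker gene are not reported here.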

Additional observations from a re-analysis of the deposited data

Results flagged for a closer look

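Members were singled out where the libraries of the time points did not overlap, being higher at 24 h in a treatment and lower at 24 h in another. For C1ra the log2 fold change from 6 h to 24 h was 0.91 in GM and -1.07 in PIO, a difference of -1.99 (SE 0.52). For Serping1 the change was 1.07 in CTRL and 0.81 in GM and -0.35 in PIO, so that PIO differed by -1.43 (SE 0.33) from CTRL and by -1.16 (SE 0.33) from GM. Without CTRL 24 h replicate 3 the difference from CTRL was -1.05. In PIO the Serping1 libraries were only narrowly apart, with at least 9.99 CPM at 6 h and at most 9.88 CPM at 24 h. For C1s1 the change was 0.65 in GM and -0.73 in PIO + GM, a difference of -1.38 (SE 0.51). These differences use the 24 h libraries on which the members were selected and were picked for their opposite directions, so they are a description with no test.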

How the results depend on the processing

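Counts of members past the threshold were recomputed under 10 other settings and without each library, and 160 of 170 counts under other settings stayed within 1.5 times the reported count. In PIO against CTRL at 24 h, the 2 became 4 by the likelihood ratio test, 5 by DESeq2 and 1 with only the libraries of the time point fitted. In PIO + GM against GM at 24 h, the 0 became 1 by the likelihood ratio test, by DESeq2 and by the replicate block with or without the GC correction. From 6 h to 24 h, fitting only the libraries compared gave 3 in place of 6 in CTRL and 0 in place of 4 in PIO, and the GC correction gave 2 in place of 4 in PIO + GM. Without single libraries the counts were 0 to 3 in PIO against CTRL at 24 h, 0 to 1 in PIO + GM against GM at 24 h, 2 to 7 in CTRL, 0 to 4 in GM, 0 to 5 in PIO and 1 to 4 in PIO + GM, and 0 in the other comparisons. The rise of C3 in CTRL was -0.15 to 3.35 without single libraries, turning negative without CTRL 24 h replicate 3, and C3 gave no value under a minimum of 10 counts in every library. The causes were not tested. Same-numbered libraries correlated in their deviations by 0.113 on average at 6 h (lowest -0.305) and 0.38 at 24 h (lowest -0.025), where libraries of different numbers averaged -0.182. All 3 same-numbered correlations were over 0.1 in 1 of 6 group pairs at 6 h and 3 of 6 at 24 h, a hint from the data, and the numbers were not taken as pairs overall. With the block, Serping1 in PIO + GM against GM at 24 h was -1.11, C4b there was -0.86 (SE 0.57), C3 in PIO + GM against PIO was 1.23 (SE 0.82), and 3 members passed in PIO against CTRL. Depth limits C3, C1ra and Cfb most, with counts down to 9 and 20.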
